A study of Mus musculus with 10 samples.

Results

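The nucleolar ribosome biogenesis factors examined here are 42 protein-coding genes given as a list of symbols, out of 24537 symbols in the deposited count table. All 42 were found in the table, and all 42 were among the 13909 genes that passed the filter on low counts and were tested. The list was put together after Nolc1, a nucleolar scaffold gene, had been seen among the genes with lower RNA in old livers. The difference between old and young control livers is therefore described for these genes with no test drawn from it.

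RNA was sequenced from 10 whole livers of male mice that had been injected with AAV8-TBG-saCas9-U6-sgRNA, an adeno-associated virus that carries a small Cas9 enzyme and a guide RNA. The young control group held 3 mice aged 9 months that received the Rosa26 guide at 7 months. The old control group held 3 mice aged 25 months that received the Rosa26 guide at 23 months. The old knockout group held 4 mice aged 25 months that received a Cd44 guide at 23 months, guide 4 in replicates 1 and 2 and guide 2 in replicates 3 and 4. Every mouse therefore carried the virus and Cas9, and every mouse was sampled 2 months after injection. The TBG promoter drives Cas9 in hepatocytes, so other liver cells keep Cd44, and no young knockout group was analysed here. Replicate numbers were given in the order of the sample records and pair no livers, and p-values measure only the spread between these livers.

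Ribosomes begin in the nucleolus, where RNA polymerase I copies the ribosomal RNA genes into a long precursor. Small nucleolar ribonucleoproteins (snoRNPs) then guide its chemical modification, the box C/D kind methylating riboses and the box H/ACA kind converting uridines to pseudouridine, while the small subunit processome and a series of 60S assembly factors fold and cut it. Many of these genes are known targets of the transcription factor MYC, which binds the E-box CACGTG, and in liver they are known for their induction when hepatocytes grow, as after partial hepatectomy.

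Total counts lay between 15821198 and 21710228 per liver, and the lowest count of any of the 42 genes in any liver was 80, for Gar1. Cd44 RNA had 14.2 to 29.99 CPM (CPM are counts scaled to the size of the library) in old control livers and 13.1 to 29.01 CPM in knockout livers, so the whole-liver levels of the targeted gene overlapped and the knockout groups rest on their labels. Hepatocyte genes were abundant in every liver, with Alb at 53019 CPM or more. Old control replicate 2 stood apart by its myeloid genes, with 298 CPM summed over 8 neutrophil and myeloid progenitor markers against 16.3 and 14.6 CPM in the other two old control livers. Old control replicate 3 carries a library name outside the run of the other 9. The counts of genes called and the medians over the 42 genes are given with and without these livers. The values by role, the ratios of genes and the further lists below are given only with them.

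Old control livers had less RNA of most of the 42 genes than young control livers. Their median log2 fold change was -0.71, beside 0.04 over all 13909 genes tested. The levels of the old livers lay below those of all young livers for 35 of the 42 genes, beside 18% of all genes. All 42 log2 fold changes were below 0 with TMM factors (trimmed mean of M values, the library scaling used throughout), beside 47.6% of all genes. With scaling by total counts alone 34 of the 42 were below 0, and with upper quartile factors 38 were. Those 2 scalings moved the median of all genes to 0.34 and 0.15, and relative to that median all 42 genes were lower under both of them and under TMM and RLE factors. As a count only, since Nolc1 was seen in this comparison first, edgeR's quasi-likelihood test had 29 of the 42 genes, Nolc1 included, under an adjusted p of 0.05 on the lower side, beside 8.66% of all genes, and 0 on the higher side, beside 14.1%. Nothing is read from that count, and the roles below are described by their levels.

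The difference was present in every old liver. Relative to the mean of the young livers, the median over the 42 genes was -0.78, -0.80 and -0.50 on the log2 scale in old control replicates 1 to 3. In knockout replicates 1 to 4 it was -0.53, -0.71, -0.70 and -0.53, and in the young livers themselves it was -0.15, 0.13 and 0.04. The young livers were thus not alike for these genes: replicate 2 held the highest level of 26 of the 42 and replicate 3 that of 12. The lowest level fell in an old control liver for 29 of the 42 genes, most often in replicate 1. Such counts by liver are not given over all genes, so a trait of these genes cannot be told apart from one of the whole library.

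**Figure D1:**
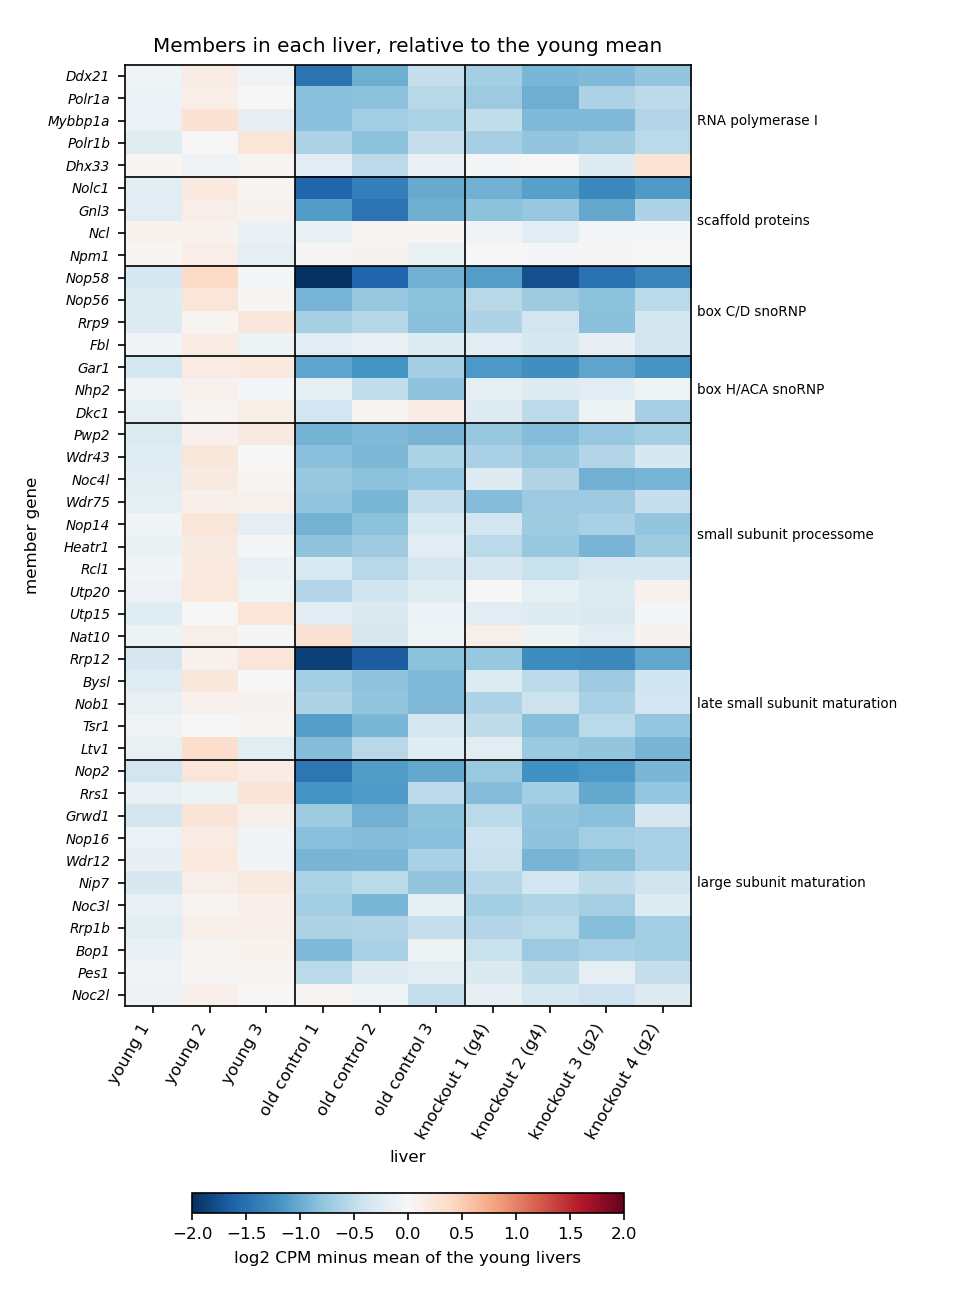
Each row is 1 of the 42 genes, grouped by role, and each column is 1 liver. Colour gives the log2 CPM minus the mean of the 3 young livers (blue lower, red higher). The 3 old control and 4 knockout columns are blue over most rows, while the rows of Ncl, Npm1 and Nat10 are paler.

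The genomic windows upstream of 4 of these genes are shown because Nop58, Nolc1 and Nop2 had some of the largest differences with age and Dhx33 a small one. They are the 250 bases before the RefSeq start of each gene, on GRCm38.p6, at chr1:59684756-59685005 (plus strand), chr19:46075597-46075846 (plus strand), chr6:125131633-125131882 (plus strand) and chr11:71004433-71004682 (minus strand). Each is written 5′ to 3′ along the gene, with capitals for 3 motifs searched on both strands. The first is the E-box CACGTG. The second is CCGGAAG, which holds the core that ETS family factors bind. The third is the palindrome TCGCGA.
Nop58: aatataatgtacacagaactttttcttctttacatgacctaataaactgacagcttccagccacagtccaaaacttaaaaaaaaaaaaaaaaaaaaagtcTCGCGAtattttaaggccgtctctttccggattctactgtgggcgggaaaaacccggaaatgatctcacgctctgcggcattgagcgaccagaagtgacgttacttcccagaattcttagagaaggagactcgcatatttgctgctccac
Nolc1: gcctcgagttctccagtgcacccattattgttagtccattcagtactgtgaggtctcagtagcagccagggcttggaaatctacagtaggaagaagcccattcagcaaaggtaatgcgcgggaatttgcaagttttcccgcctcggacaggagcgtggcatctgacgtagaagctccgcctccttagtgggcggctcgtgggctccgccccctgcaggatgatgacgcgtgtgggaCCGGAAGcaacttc
Nop2: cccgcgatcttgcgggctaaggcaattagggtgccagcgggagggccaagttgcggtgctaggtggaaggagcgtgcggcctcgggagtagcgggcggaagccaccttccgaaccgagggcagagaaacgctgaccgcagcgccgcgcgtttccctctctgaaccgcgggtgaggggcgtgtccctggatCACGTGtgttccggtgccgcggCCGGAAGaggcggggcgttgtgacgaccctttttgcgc
Dhx33: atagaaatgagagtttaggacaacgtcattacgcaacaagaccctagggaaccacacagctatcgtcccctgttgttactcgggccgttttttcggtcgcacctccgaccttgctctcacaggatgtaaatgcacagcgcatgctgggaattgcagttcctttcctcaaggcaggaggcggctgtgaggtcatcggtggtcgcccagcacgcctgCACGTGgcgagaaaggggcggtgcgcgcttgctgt

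The Nop2 window held CACGTG 60 bases and CCGGAAG 38 bases before the start, the Dhx33 window CACGTG 35 bases before it, the Nolc1 window CCGGAAG 14 bases before it and the Nop58 window TCGCGA 150 bases before it. Windows from 250 bases before to 50 bases after the start were found for 37 of the 42 genes, all but Npm1, Fbl, Bop1, Rrp12 and Rrs1. CACGTG was present in 9 of the 37 (24.3%: Nop2, Pes1, Wdr43, Utp20, Ltv1, Tsr1, Mybbp1a, Dhx33 and Grwd1), beside 8.09% of 27025 genes with a window and 11.5% of the 10682 of them that were tested here. CCGGAAG was present in 12 of the 37 (32.4%), beside 18.8% of the tested genes, and TCGCGA in 4 (10.8%), beside 5.31%. GCATGCG was found in 3 (8.11%, beside 6.94%), AAGATGG in 2 (5.41%, beside 8.06%) and TATAAA in 2 (5.41%, beside 9.49%). The member windows had a median GC content of 59.7%, against 52.7% over all windows, whether or not their genes were tested. The E-box is itself rich in G and C, like the other motifs written in capitals above. The GC content of the windows of tested genes alone is not given. The part of GC content in these motif shares was not tested. No motif overlapped another in the 4 windows shown. The 9 genes with CACGTG had a median log2 fold change with age of -0.73, and the 28 without it one of -0.71.

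Among the genes of ribosomal DNA transcription, all 5 had every old control liver below every young one, beside 18% of all genes. Mybbp1a (chromosome 11, 72441355 to 72451768 on GRCm38), which encodes a MYB-binding nucleolar protein, had 87.6, 116 and 85.2 CPM in young replicates 1 to 3 and 53.2, 58.7 and 61.7 CPM in old control replicates 1 to 3. In knockout replicates 1 to 4 its level was 68.1, 51.6, 51.8 and 63.2 CPM. All 7 old livers thus lay below all 3 young ones, and the log2 fold change with age was -0.73 (SE 0.16). Polr1a, which encodes the largest subunit of RNA polymerase I, had 32.9, 39.2 and 35.5 CPM in young livers, 20.1, 20.1 and 24.2 CPM in old controls and 21.6, 18.1, 23.4 and 24.9 CPM in knockout livers. Its groups did not overlap either, with a log2 fold change of -0.74 (SE 0.14), and that of Polr1b, the second largest subunit, was -0.65 (SE 0.15). Ddx21, an RNA helicase of the nucleolus, had 58.6, 68.9 and 58.6 CPM in young livers and 22.2, 31.5 and 45.03 CPM in old controls, where replicate 3 was again the closest to the young range. Its knockout livers had 38.5, 32.8, 33.5 and 35.8 CPM. Dhx33, another RNA helicase, showed the smallest difference of the group at -0.28 (SE 0.15).

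The nucleolar scaffold proteins were divided. Nolc1 (chromosome 19, 46075863 to 46085530), which chaperones snoRNPs through the nucleolus, had 46.3, 62.1 and 55.8 CPM in young livers, 17.9, 20.97 and 26.9 CPM in old controls and 27.8, 25.6, 22.2 and 24.7 CPM in knockout livers. Every old liver was below every young liver, and old controls averaged 21.9 ± 4.53 CPM (SD, n = 3) against 54.7 ± 7.99 CPM (SD, n = 3), which is a log2 fold change of -1.32 (SE 0.17). Gnl3 (chromosome 14, 31012433 to 31019152), which encodes the GTP-binding protein nucleostemin, had 48.9, 62.2 and 59.7 CPM in young livers, 25.95, 20.3 and 28.7 CPM in old controls and 32.1, 33.3, 27.7 and 36.8 CPM in knockout livers. It too showed no overlap between the ages, with a log2 fold change of -1.19 (SE 0.16). Ncl, which encodes nucleolin, an abundant RNA-binding protein of the same compartment, had 166, 165 and 143 CPM in young livers, 143, 164 and 160.3 CPM in old controls and 149, 134, 156 and 153 CPM in knockout livers. The groups overlapped throughout for Ncl, and its log2 fold change of -0.02 had a 95% interval of -0.29 to 0.25. Npm1, the histone chaperone nucleophosmin, likewise had 142 ± 15.4 CPM in young and 140.5 ± 10.5 CPM in old control livers (SD, n = 3 each), with an interval of -0.28 to 0.25.

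The box C/D snoRNP proteins differed among themselves in the same way. Nop58 (chromosome 1, 59684971 to 59719044), a core protein of the particle, had 38.2, 62.4 and 46.6 CPM in young livers, 11.8, 15.95 and 24.7 CPM in old controls and 22.4, 14.1, 17.003 and 19.2 CPM in knockout livers. This was the largest difference of the 42 genes, at -1.49 (SE 0.27) with TMM factors, and no old liver reached the lowest young one. Nop56, the partner of Nop58, had 37.9, 53.6 and 45.9 CPM in young livers, 23.8, 26.7 and 25.6 CPM in old controls and 30.9, 27.6, 25.7 and 31.3 CPM in knockout livers, again with no overlap and a log2 fold change of -0.85 (SE 0.14). Rrp9, a protein specific to the U3 particle, was lower by a log2 fold change of -0.70 (SE 0.18). Fbl, which encodes the methyltransferase fibrillarin itself, had 34.1, 39.4 and 32.8 CPM in young livers and 30.3, 31.95 and 29.3 CPM in old controls. Knockout livers had 30.7, 28.2, 31.5 and 27.5 CPM of Fbl. Its old values were just below the young ones, with a log2 fold change of -0.22 (SE 0.11) between the control groups.

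In the box H/ACA snoRNP, Gar1 (chromosome 3, 129824912 to 129831396) had 8.32, 12.005 and 12.2 CPM in young livers, 5.11, 4.604 and 6.53 CPM in old controls and 4.76, 4.49, 5.09 and 4.67 CPM in knockout livers. Its level in old control livers was 49.9% of that in young ones, and no old liver overlapped a young one. Nhp2, another core protein, had 22.03, 24.4 and 22.6 CPM in young livers, 20.3, 16.3 and 13.1 CPM in old controls and 20.2, 19.2, 19.7 and 21.6 CPM in knockout livers, a smaller gap of -0.48 (SE 0.15) with age. Dkc1, on chromosome X, encodes the pseudouridine synthase dyskerin and had 11.4, 13.4 and 13.9 CPM in young livers and 9.78, 13.2 and 14.3 CPM in old controls. Its knockout livers had 10.7, 8.90, 12.01 and 8.11 CPM. The Dkc1 control ranges overlapped, with a 95% interval of -0.48 to 0.37 for its log2 fold change.

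**Figure D2:**
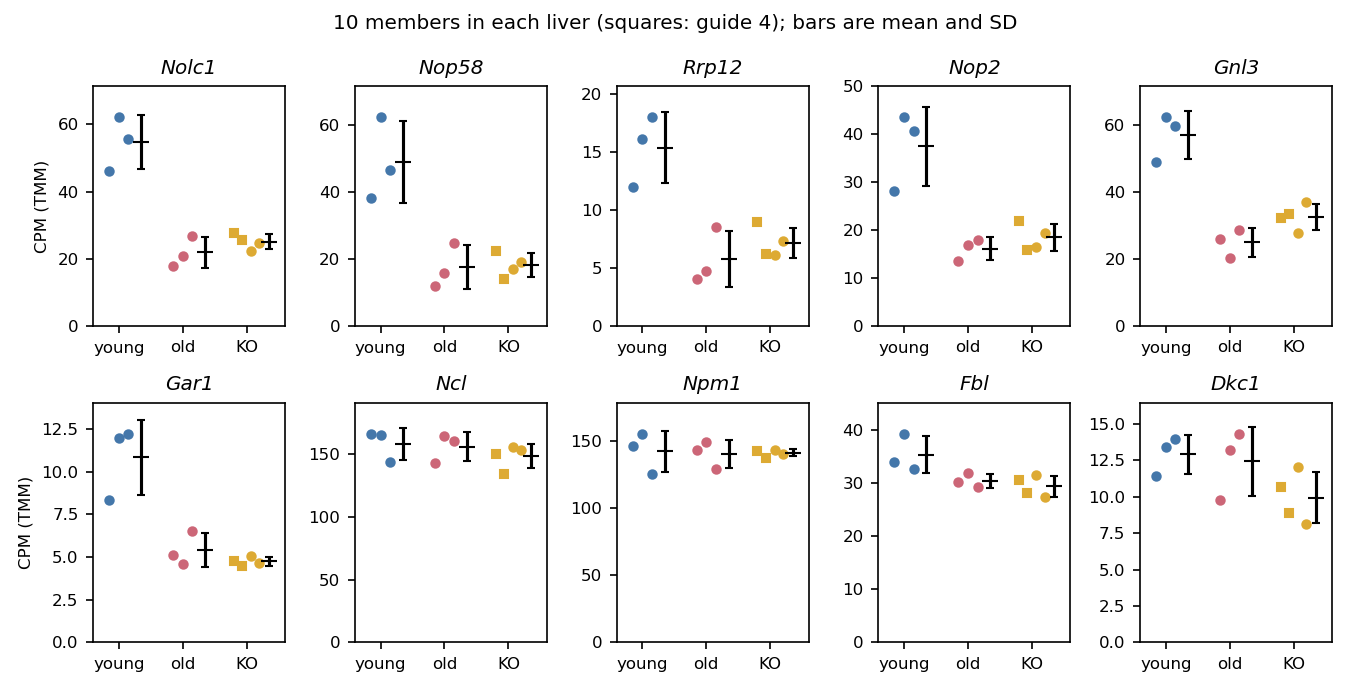
CPM of 10 genes in each of the 10 livers (young control, old control and Cd44 knockout, with squares for guide 4), where the black marks give the mean and SD of each group. Nolc1, Nop58, Rrp12, Nop2, Gnl3 and Gar1 show old and knockout livers below all young ones, while Ncl, Npm1 and Dkc1 overlap and the Fbl groups lie close together.

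The small subunit processome is the particle that forms on the 5′ part of the precursor. Of its 10 listed genes, 8 had all old control livers below all young ones, beside 18% of all genes. Pwp2 (chromosome 10, 78170909 to 78185149), a UTP-B protein, had 21.8, 27.9 and 29.97 CPM in young livers, 13.6, 14.3 and 13.8 CPM in old controls and 15.5, 14.4, 15.4 and 16.4 CPM in knockout livers. It showed the largest difference of this group, at -0.94 (SE 0.13), with old controls tightly together. Rcl1, which encodes a protein of the U3-dependent cleavage step, had 135, 160.4 and 128 CPM in young livers and 113, 94.996 and 109.7 CPM in old controls. Its knockout livers had 111, 103, 110.3 and 111 CPM, so all old livers were below all young ones by a modest margin, at -0.41 (SE 0.13). Noc4l, the partner of Nop14, had 20.1, 26.5 and 24.1 CPM in young livers, 13.8, 13.2 and 13.6 CPM in old controls and 19.6, 15.4, 12.01 and 12.3 CPM in knockout livers. Wdr43, a UTP-A protein, had 30.2, 41.9 and 35.7 CPM in young livers, 19.96, 19.01 and 23.04 CPM in old controls and 22.7, 20.98, 23.8 and 28.5 CPM in knockout livers. Both had a log2 fold change of -0.80 with age and no overlap. Wdr75, Nop14 and Heatr1 were lower by -0.73, -0.67 and -0.57, while Utp20, Utp15 and Nat10, the last an RNA acetyltransferase, had values of -0.41, -0.22 and -0.02.

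Late 40S factors act on the nearly finished small subunit. For all 5 the old control livers lay below the young ones, beside 18% of all genes. Rrp12 (chromosome 19, 41862851 to 41896173), which takes part in export of pre-ribosomes, had 11.99, 16.1 and 17.99 CPM in young livers, 4.08, 4.74 and 8.54 CPM in old controls and 8.95, 6.24, 6.12 and 7.35 CPM in knockout livers. Its log2 fold change was -1.41 (SE 0.28), and no old liver came near the young range. Tsr1, a protein related to translational GTPases, had 75.5, 79.8 and 82.4 CPM in young livers, 37.01, 41.8 and 62.7 CPM in old controls and 55.4, 43.6, 54.5 and 46.2 CPM in knockout livers. Old control replicate 3 was nearest to the young livers for Tsr1, and the log2 fold change was -0.75 (SE 0.18). Bysl had 38.2, 52.97 and 45.7 CPM in young livers, 28.4, 25.8 and 24.4 CPM in old controls and 37.3, 31.3, 27.2 and 34.5 CPM in knockout livers. Knockout replicate 1 almost reached the lowest young liver for Bysl, whose log2 fold change with age was -0.80 (SE 0.15). Nob1, the endonuclease that forms the 3′ end of 18S ribosomal RNA, was lower by -0.77 (SE 0.14). Ltv1 had 18.8, 26.5 and 17.99 CPM in young livers and 11.4, 14.2 and 17.5 CPM in old controls, a difference of -0.56 (SE 0.23) with the highest old control close to the lowest young liver.

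Large subunit factors had 9 of 11 genes with all old control livers below all young ones, beside 18% of all genes. The exceptions were Bop1 and Noc2l. Nop2 (chromosome 6, 125131909 to 125144753), a methyltransferase of 28S ribosomal RNA, had 28.1, 43.5 and 40.7 CPM in young livers, 13.5, 16.9 and 17.98 CPM in old controls and 21.96, 15.9, 16.5 and 19.5 CPM in knockout livers. Rrs1 (chromosome 1, 9545408 to 9547455), which helps to place the 5S particle, had 35.8, 36.9 and 47.5 CPM in young livers, 17.3, 18.1 and 27.6 CPM in old controls and 21.6, 24.8, 19.5 and 23.3 CPM in knockout livers. Neither showed an overlap of ages, and their log2 fold changes were -1.21 (SE 0.19) and -0.93 (SE 0.19). Rrp1b had 10.2, 12.7 and 12.7 CPM in young livers, 7.67, 7.75 and 8.49 CPM in old controls and 7.79, 8.11, 6.4996 and 7.35 CPM in knockout livers, a difference of -0.57 (SE 0.15). In the PeBoW complex, Wdr12 had a log2 fold change of -0.84 (SE 0.17), Bop1 one of -0.51 (SE 0.18) and Pes1 one of -0.33 (SE 0.13). Noc2l had 40.02, 46.4 and 42.8 CPM in young livers, 44.1, 40.5 and 31.003 CPM in old controls and 38.4, 33.8, 32.4 and 36.1 CPM in knockout livers, so young and old controls overlapped for it. Grwd1, Nop16 and Nip7 were lower at -0.86, -0.85 and -0.67. Noc3l had 10.6, 12.3 and 12.7 CPM in young livers, 7.23, 6.20 and 10.4 CPM in old controls and 7.32, 7.72, 7.39 and 9.92 CPM in knockout livers, at -0.58 (SE 0.21) with age.

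The count of 29 moved with single livers, as did the calls over all genes. Without young replicate 2, which held most of the highest levels, it was 9, where 1.08% of all genes were called lower. Without old control replicate 2, the liver with myeloid RNA, it was 17, beside 2.31% of all genes, and without old control replicate 3 it was 33, beside 17% of all genes. With both of these old controls left out it was 27, beside 13.8% of all genes. Replicate 1 then stood alone for its group and was assumed to vary like the livers of the other groups. The median log2 fold change lay between -0.80 and -0.67 in these 4 settings.

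Other cell types differed between the same livers. Summed over their markers, Kupffer cell and macrophage genes had 188 to 272 CPM in young and 349 to 1238 CPM in old control livers. Knockout livers had 290.4 to 566 CPM, with all 10 markers counted in every liver. Of these 10 markers 9 had a log2 fold change with age above 0 and 1 below, at -0.34. Sinusoidal endothelium had 165 to 229 CPM in young, 336 to 372 in old control and 228 to 282 CPM in knockout livers over 8 markers, so knockout replicate 4 was within the young range. Stellate cell genes had 149.7 to 277 CPM in young, 305 to 465 in old control and 255 to 301 CPM in knockout livers over 8 markers, with old controls above all young livers and knockout replicates 1 and 4 within the young range. With age 7 of these 8 markers had a log2 fold change above 0 and 1 below, at -1.07. Sums over 9 T and NK cell markers were 3.67 to 5.57, 7.11 to 58.2 and 13.7 to 30.8 CPM, and sums over 7 B and plasma cell markers 4.02 to 8.38, 9.06 to 36.1 and 22.7 to 32.0 CPM. Neutrophil and myeloid progenitor markers, of which 2 of 8 were at 0 in all young livers, summed to 3.74 to 9.97, 14.6 to 298 and 7.96 to 23.5 CPM. Cell cycle genes summed to 60.8 to 71.8 CPM in young, 62.2 to 166 in old control and 80.02 to 96.5 CPM in knockout livers over 12 genes. Their log2 fold changes with age had a median of 1.45, with 11 above 0 and 1 below. Sums over 8 erythroid and megakaryocyte markers were 734 to 781, 561 to 1128 and 643 to 1396 CPM, and sums over 7 cholangiocyte markers 64.9 to 126, 110.3 to 161 and 102 to 191 CPM, each with overlapping groups. Single markers did not all follow such sums. Of 7 erythroid and megakaryocyte markers tested, 6 had a log2 fold change with age above 0 and 1 below, from -0.75 to 5.13. Hepatocyte genes, with all 10 markers counted in every liver, summed to 108368 to 137550 CPM in young, 86142 to 116962 in old control and 94191 to 95815 CPM in knockout livers. Hnf4a, a transcription factor that defines hepatocytes, had 1069 to 1188 CPM in young, 437 to 842 in old control and 567 to 625 CPM in knockout livers. It does not stand for all 10 hepatocyte markers. Their log2 fold changes with age ran from -0.97 to 0.18, with a median of -0.44, 9 below 0 and 1 above. The part of these cell types in the differences of the 42 genes was not tested, and fewer cells of a type cannot be told apart from less RNA per cell in whole liver.

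The knockout livers were not used to choose the genes, but this comparison shares its young livers with the one above. The young levels entered the choice of Nolc1, so it is left out of this count and given without a p. Leaving it out does not make the count independent of that choice, because the other 41 genes are compared with the same young livers. As a description, 25 of the other 41 genes were called lower in knockout than in young control livers by edgeR's quasi-likelihood test, and 0 higher. Over all genes 4.97% were called lower and 6.64% higher. All 42 log2 fold changes, Nolc1 included, were below 0 (47.8% of all genes), with a median of -0.64 beside 0.03 over all genes. The 2 groups did not overlap for 34 of the 42 genes, Nolc1 included, on the lower side, beside 18.8% of all genes. Nolc1 had a log2 fold change of -1.13 (SE 0.15), and all 4 of its knockout livers were below all 3 young ones. Among the other 41 genes the smallest p-values belonged to Gar1, Pwp2, Nop2 and Nop58. Gar1 had -1.19 (SE 0.19, edgeR adjusted p 0.00938) and Pwp2 -0.78 (SE 0.12, edgeR adjusted p 0.00981), each with the same separation. Nop2 had -1.02 (SE 0.18, edgeR adjusted p 0.0126) and Nop58 -1.43 (SE 0.25, edgeR adjusted p 0.0129), again with 4 of 4 knockout livers below the young range.

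The counts by role stand beside 4.97% of all genes called lower. Called lower were 4 of 5 genes for ribosomal DNA transcription, 1 of 3 scaffold proteins other than Nolc1 (Gnl3) and 2 of 4 box C/D proteins. The rest were 1 of 3 box H/ACA proteins, 6 of 10 for the processome, 4 of 5 late 40S factors and 7 of 11 large subunit factors. Among all those called lower were Polr1a at -0.71 (edgeR adjusted p 0.016), Gnl3 at -0.81 (edgeR adjusted p 0.014), Nop56 at -0.67 (edgeR adjusted p 0.0178) and Rrp12 at -1.10 (edgeR adjusted p 0.0273). The 95% intervals of the log2 fold changes of Ncl, Npm1, Nat10 and Dhx33 were -0.34 to 0.16, -0.26 to 0.24, -0.36 to 0.31 and -0.31 to 0.31. Fbl had -0.27 (SE 0.10, edgeR adjusted p 0.105) and Dkc1 -0.38 (SE 0.18, edgeR adjusted p 0.167), neither past the threshold. With scaling by total counts, 11 of the 42 genes passed (1.82% of all genes), 33 were below 0 and the median was -0.32, where that of all genes was 0.35. All 42 stayed below the median of all genes under that scaling.

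With Nolc1 the count was 26 of 42, and it moved with the livers used, again together with the calls over all genes. It was 1 without young replicate 2 and 4 without young replicate 3, where 0.226% and 0.749% of all genes were called lower. It was 11, 8 and 13 without knockout replicates 2, 3 and 4, beside 1.34%, 1.03% and 0.989% of all genes. The median log2 fold change stayed at -0.54 or lower in these fits. Counted by guide, 12 genes passed when only the guide 2 livers stood for the knockout (2.14% of all genes). With only the guide 4 livers 0 did (0.0848%). The medians were -0.63 and -0.60, beside 0.03 and 0.01 over all genes. At an unadjusted p under 0.05 edgeR had 30 and 31 of the 42 genes. The share of all genes at that level is not given for these 2 fits. With both guides together it was 33.3%.

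**Figure D3:**
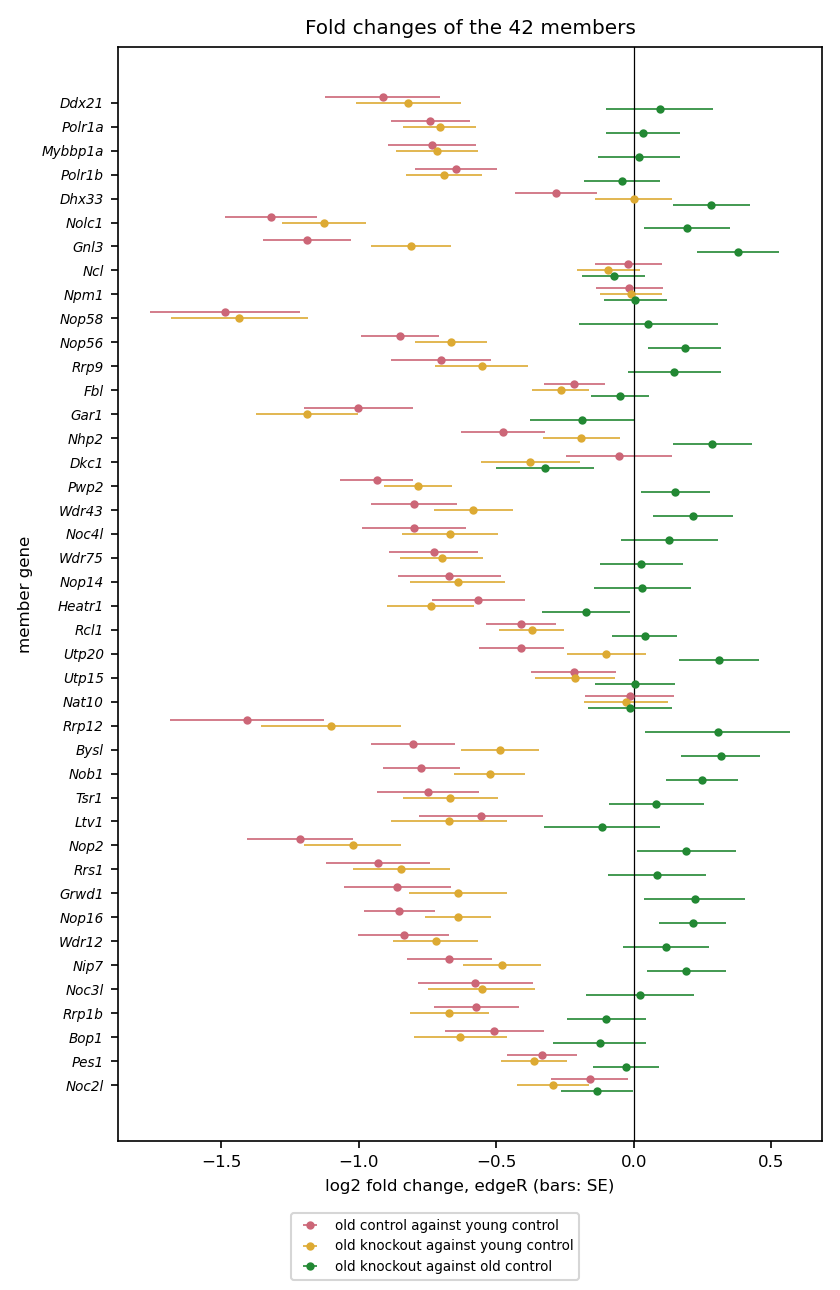
Points give the log2 fold change of each of the 42 genes in edgeR and bars its standard error, for old control against young (red), knockout against young (yellow) and knockout against old control (green). The red and yellow points share the young livers and reach down to -1.49 and -1.43, while the green points lie between -0.32 and 0.38.

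Between knockout and old control livers no gene of the set passed the test. Of the 42, 0 passed an adjusted p under 0.05 in edgeR, as did 0% of the 13909 genes tested. DESeq2 called 0 of the 42, beside 8 of the 13893 genes tested there. At an unadjusted p under 0.05 edgeR had 2 of them, beside 6.59% of all genes. The median log2 fold change was 0.07, beside -0.02 over all genes, with 12 genes below 0, beside 54.4% of all genes. Gnl3 had the smallest p, with 32.5 ± 3.75 CPM in knockout livers (SD, n = 4) against 24.98 ± 4.30 CPM in old controls (SD, n = 3). The log2 fold change of 0.38 (SE 0.15) had an unadjusted p of 0.0274 in edgeR, or 0.744 once adjusted over all genes. Old control replicate 3 lay inside the knockout range for Gnl3. Bysl had a log2 fold change of 0.32 (SE 0.14, unadjusted p 0.0485, edgeR adjusted p 0.748), and 1 of its 4 knockout livers was within the old control range.

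Utp20, a large scaffold protein of the processome, had 15.7, 19.9 and 16.1 CPM in young livers, 11.4, 12.99 and 14.5 CPM in old controls and 17.1, 14.96, 14.1 and 18.1 CPM in knockout livers. Its log2 fold change of 0.31 between knockout and old control livers did not pass (edgeR adjusted p 0.748), and its knockout livers overlapped both other groups. Dhx33 had 26.3, 24.7 and 26.9 CPM in young livers, 22.4, 18.1 and 23.6 CPM in old controls and 25.2, 25.7, 21.7 and 31.2 CPM in knockout livers. For it the value was 0.28 (edgeR adjusted p 0.758), the knockout livers spanning the young range. Nhp2 had 0.29 (edgeR adjusted p 0.758), with old control replicate 1 inside the knockout range.

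Knockout and old control livers did not overlap for 2 genes, Nop16 and Pwp2, which were higher in knockout livers, beside 2.84% of all genes, and for 0 genes on the lower side, beside 3.26%. For Nolc1 the 95% interval of the difference was -0.15 to 0.53, for Nop58 it was -0.50 to 0.61 and for Nop2 -0.20 to 0.59. Each of the 3 intervals includes 0, and a p that misses the threshold does not show that the groups are alike. Without old control replicate 3, the liver nearest the young ones, the median was 0.14, beside -0.01 over all genes. Then 9 of the 42 genes had an unadjusted p under 0.05 in edgeR. Past the adjusted threshold were 0 of them and 0% of all genes. Without old control replicate 2 the median was 0.02, beside -0.02 over all genes, and none of the 42 had an unadjusted p under 0.05. The share of all genes at the unadjusted level is not given for these fits, so nothing is read from those counts.

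The 2 Cd44 guides were compared with 2 livers each. Of the 42 genes 0 passed in edgeR, beside 0.0212% of 14153 genes tested in the fit with separate guides, and 1 had an unadjusted p under 0.05, beside 4.4% of all genes. The median log2 fold change of guide 4 over guide 2 was 0.004, beside 0.003 over all genes, with 21 genes below 0, beside 49.5% of all genes. Noc4l had 19.6 and 15.4 CPM in the guide 4 livers and 12.01 and 12.3 CPM in the guide 2 livers. The difference of 0.53 on the log2 scale (SE 0.18) had an unadjusted p of 0.0146 in edgeR, or 0.871 once adjusted over all genes. Guide 4 livers were thus above the old controls, which had 13.2 to 13.8 CPM, and guide 2 livers below them. Ltv1 had 17.7 and 12.4 CPM under guide 4 against 12.01 and 10.9 CPM under guide 2, at 0.39 (edgeR adjusted p 1). Polr1a, Wdr43 and Rrp1b had values of -0.28, -0.26 and 0.20, each with an edgeR adjusted p of 1 and no overlap of the guides. The 2 guides did not overlap for 3 genes on the lower side and 4 on the higher side, beside 20.4% and 18.1% of all genes.

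The ratio of the RNA of 2 genes within a liver does not depend on how libraries are scaled, and it was taken for 4 pairs whose proteins share a complex and for 2 scaffold proteins. These pairs were chosen after their values had been seen, so the ratios are given as a description, and each shows only that the 2 RNAs changed unequally. Log2 Nop58 over Fbl was 0.16 to 0.66 in young livers, -1.35 to -0.25 in old controls and at most -0.45 in knockout livers. Log2 Gar1 over Dkc1 was -0.45 to -0.16, -1.52 to -0.94 and -1.24 to -0.80 in the same order. For Nolc1 over Ncl the ranges were -1.84 to -1.36, -2.99 to -2.58 and -2.81 to -2.39. In all 3 pairs every old liver was below every young liver. Nop56 over Fbl had ranges of 0.15 to 0.48, -0.34 to -0.19 and -0.29 to 0.19, so 1 knockout liver reached the young range. Wdr12 over Pes1 had -0.95 to -0.67, -1.51 to -1.25 and -1.52 to -1.01, with old controls and knockout livers below the young range.

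**Figure D4:**
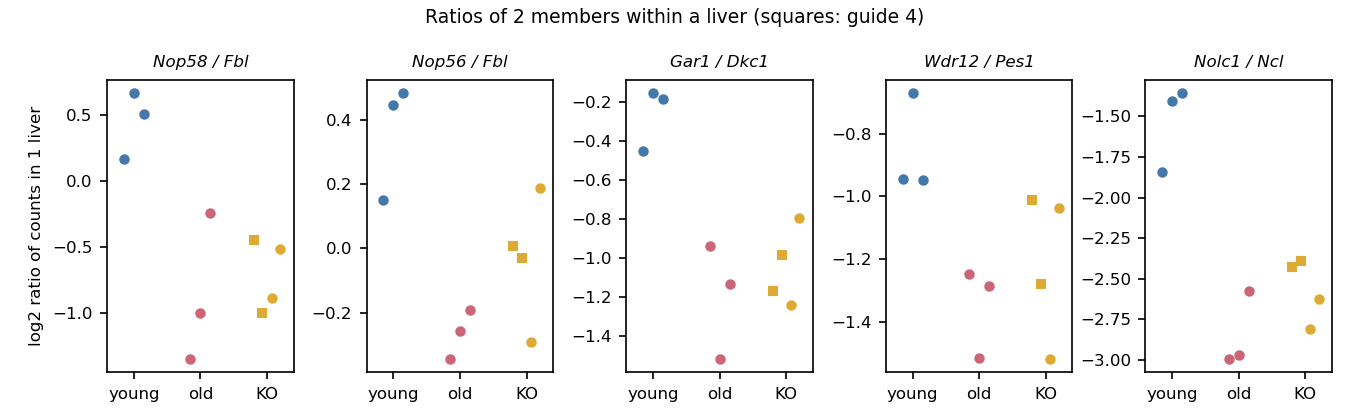
Log2 ratio of 2 genes within each liver for 5 pairs, with 1 point per liver and groups from left to right young control, old control and knockout. For Nop58 over Fbl, Gar1 over Dkc1 and Nolc1 over Ncl, all 7 old livers lie below the 3 young ones.

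The rest of the pathway was described from lists of further factors that share no gene with the 42. These counts, too, come from the comparison in which Nolc1 was seen, where 8.66% of all genes were called lower. Of 46 other 60S assembly factors, 24 were lower in old control livers at an adjusted p under 0.05 and 0 higher, with a median log2 fold change of -0.51. The largest of these differences were in Ppan, at -1.02 (37.0 ± 8.91 against 18.3 ± 3.27 CPM, SD, n = 3 each), Rrp15, at -1.001, and Gtpbp4, at -0.94. Of 45 other processome and 40S factors, 16 were lower and 0 higher, with a median of -0.38. Nol10 had -1.13 (13.2 ± 2.05 against 6.05 ± 1.02 CPM, SD, n = 3 each), Mphosph10, a partner of the U3 particle, -1.06, and Ngdn -0.96. Among 14 other genes of the RNA polymerase I machinery 4 were lower, with a median of -0.38, led by Polr1e at -0.86, Twistnb at -0.66 and Rrn3, the initiation factor of this polymerase, at -0.55. Of 10 snoRNP assembly genes 3 were lower (Nhp2l1, Nufip1 and Nop10, at -0.50, -0.49 and -0.40), and of 14 RNA exosome genes also 3 (Exosc1, Exosc3 and Exosc2, at -0.83, -0.53 and -0.49).

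Genes of the cytosolic ribosomal proteins, the material that these factors assemble, had a median of 0.06 with age, and 0 of 79 passed in either direction. Of 12 genes of the MYC network 1 was lower, Mlx, at -0.61 (SE 0.13), a share near the 8.66% of all genes, and 0 were higher. Myc had 6.79, 5.08 and 5.58 CPM in young livers, 4.82, 10.5 and 8.25 CPM in old controls and 3.37, 9.25, 7.63 and 6.54 CPM in knockout livers. These ranges overlapped, and the log2 fold change of Myc with age was 0.44 (SE 0.35).

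Against young livers, the knockout livers had 12 of the 46 other 60S factors lower in edgeR, 9 of the 45 processome and 40S factors, 3 of 14 polymerase I genes, 1 of 10 snoRNP assembly genes, 1 of 14 exosome genes, 1 of 12 MYC network genes and 0 of 79 ribosomal protein genes, where 4.97% of all genes were called lower. A single gene of 10, 14 or 12 is near that share. Gtpbp4 had -1.04 (edgeR adjusted p 0.0192), Nol10 -1.04 (edgeR adjusted p 0.0148) and Polr1e -0.82 (edgeR adjusted p 0.0364). Ddx18 and Rrp15 had -0.85 and -0.79, and Cirh1a and Mphosph10 -1.01 and -0.89. Between knockout and old control livers 0 genes of these 7 lists passed in edgeR. Their medians there lay between -0.06, for the MYC network, and 0.13, for the exosome.

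**Figure D5:**
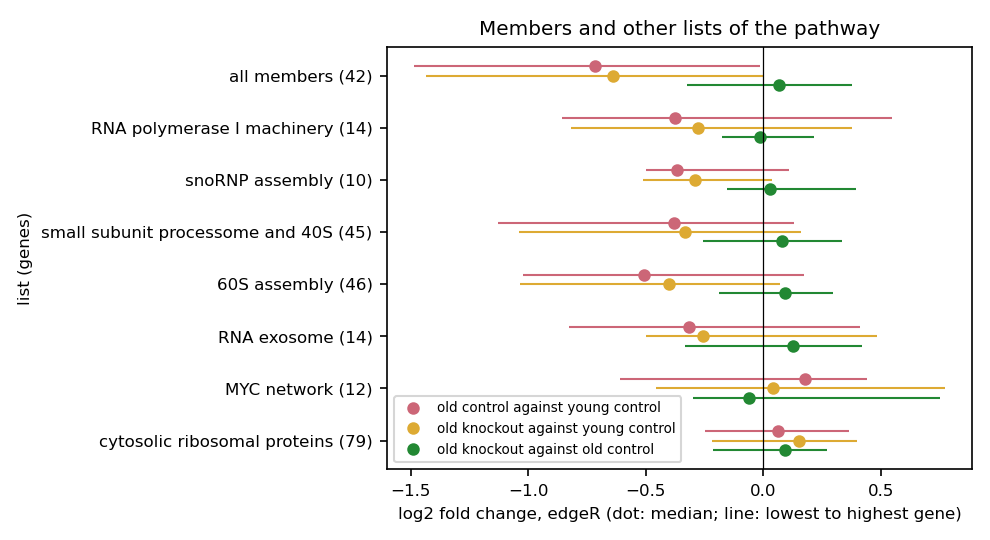
Log2 fold changes of the 42 genes and of the 7 further lists, with a dot for the median and a line from the lowest to the highest gene, for old control against young (red), knockout against young (yellow) and knockout against old control (green). The red and yellow medians of the 42 genes and of the 5 assembly and processing lists are below 0, and those of the ribosomal protein and MYC network lists are above 0.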

How the data were processed

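RNA from whole liver was isolated for polyadenylated transcripts and read as pairs of 75 bases, per the labels' protocols. FastQC 0.11.8, Trim Galore 0.4.4, STAR 2.5.3a and HOMER were used with the mm10 build, per the submitters' processing notes; the gene annotation and the strand setting are not given in the sources used here, so reads of overlapping or antisense genes may be shared. The authors deposited a single table of unnormalized counts, in which each gene symbol has a whole number of reads for each liver. No pair of libraries of a group agreed within sampling noise (chi-square of at least 21.7 per degree of freedom).

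The counts were tested with edgeR 4.0.16 in R 4.3.3, by the quasi-likelihood test on all 10 livers with a coefficient for each group, TMM factors and filterByExpr (minimum count 10, minimum total 15). This kept 13909 genes, over which Benjamini-Hochberg adjustment was made, with a threshold of 0.05. Guide 4 and guide 2 livers had coefficients of their own in a further fit. Levels are CPM with TMM factors and are not scaled to gene length; a ranking by mean CPM served only to choose genes to name. The biological coefficient of variation was 21.8%. The steps were also run on simulated counts with the same spread for every gene, a simpler setting than these livers. No result here rests on that run.

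The genes, the lists, the tests and the naming rule were chosen with earlier results of these data known. Values in every liver are given for Nolc1, for the gene with the highest mean CPM of each role, for the 8 largest changes with age among the genes past the threshold, for the 5 smallest p-values in each other comparison and for genes with a liver far from the rest. Ddx21, Fbl, Dkc1 and Npm1 were added after their values were seen. Of each other list at most 3 genes per comparison are named, and Myc. Alternatives were DESeq2 1.42.0, limma 3.58.1 with voom, other scalings, no filter, fits on only the groups compared, a correction for GC content and transcript length, each guide alone and leaving out livers. Positions were taken from GENCODE M21 (GRCm38) and windows from RefSeq (GRCm38.p6). Protein sequences were not used here.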

Additional observations from a re-analysis of the deposited data

Results flagged for a closer look

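In 2 of the 42 genes, 1 knockout liver stood far outside the remaining 3, measured as its gap to the nearest liver divided by the whole range of the group. For Noc3l, a large subunit factor, knockout replicate 4 had 9.92 CPM against 7.32, 7.72 and 7.39 CPM in replicates 1 to 3, a share of 0.846. For Rcl1, knockout replicate 2 had 103 CPM against 111, 110.3 and 111 CPM in the others, a share of 0.882. Chance gives such a gap in about 1 in 20 groups, or 2.1 of 42.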

How the results depend on the processing

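For old against young control livers the median log2 fold change of the 42 genes stayed below 0 under every alternative run. Between 25 and 30 genes passed with DESeq2, limma, RLE or upper quartile factors, no filter or the GC and length correction. Without the livers other than those named here 25 to 33 did. In these settings 4.54% to 17% of all genes were called lower, so the calls over all genes moved as well. Exceptions were total counts (17 genes, median -0.408, with 2.55% of all genes called lower) and only the 2 groups compared (19, beside 3.22%). Further exceptions came from single livers left out, where the count ranged from 9 to 33, beside 1.08% to 17% of all genes. It was 9 without young replicate 2 (beside 1.08%), 21 without young replicate 3 (3.87%) and 17 without old control replicate 2 (2.31%). Knockout against young gave 11 genes and a median of -0.319 with total counts, where 1.82% of all genes were called lower. It gave 12 with only guide 2 livers (2.14%), 0 with only guide 4 livers (0.0848%) and 1 to 24 with 1 liver left out (0.226% to 5.64%). The count rose from 26 to 33 with only the groups compared (14.1%) and to 32 with DESeq2 (9.67%). The median of all genes was 0.342 and 0.346 with total counts. The cause was not tested, except that fewer livers entered several of these fits. Knockout against old control had 0 of the 42 genes in every alternative run with more than 1 liver in each group. Over all genes these runs called 0 to 8. Guide 4 against guide 2 had 0 of the 42 in every alternative run with 2 livers a guide, where 2 to 74 of all genes were called.

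Single genes changed sign in some settings. With age and total counts these were Ncl 0.289, Npm1 0.301, Fbl 0.097, Dkc1 0.243, Utp15 0.080, Dhx33 0.016, Nat10 0.295 and Noc2l 0.161. With upper quartile factors Ncl had 0.094, Npm1 0.10, Dkc1 0.056 and Nat10 0.096, and with the GC and length correction Npm1 had 0.146 and Dkc1 0.038. Leaving out 1 liver gave ranges of -0.090 to 0.035 for Ncl, -0.104 to 0.049 for Npm1, -0.172 to 0.088 for Dkc1 and -0.205 to 0.118 for Nat10. Without old control replicates 2 and 3 together, chosen after seeing the data, Nat10 had 0.291 and Noc2l 0.029, and Nhp2 had -0.008 between knockout and old control, against 0.286 with all livers. For knockout against young, total counts gave Ncl 0.227, Npm1 0.313, Fbl 0.055, Nhp2 0.130, Utp15 0.102, Utp20 0.223, Nat10 0.292 and Noc2l 0.027, where Fbl and Noc2l had -0.266 and -0.293 with TMM factors. Upper quartile factors gave Ncl 0.019, Npm1 0.103, Utp20 0.011 and Nat10 0.082, the GC and length correction Npm1 0.087, and only guide 4 livers Nat10 0.005. Leaving out 1 liver gave -0.098 to 0.055 for Npm1, -0.166 to 0.013 for Utp20 and -0.083 to 0.032 for Nat10 there. Dhx33, too near 0 there for a direction with TMM factors, had 0.319 with total counts, 0.111 with upper quartile factors, 0.023 with only guide 2 livers, 0.004 with only the groups compared and -0.099 to 0.073 with 1 liver left out. No paired analysis was possible because the replicate numbers follow the order of the records and pair no livers. The protein features planned were not run.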
